A study of Drosophila melanogaster with 4 samples.

Results

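Chromosome arm 3L of Drosophila melanogaster carried 940 of the 5135 ZW5 regions in the list that the authors deposited for the replicates together, which is called the combined list here. The members were all regions whose sequence name was 3L, with no limit on score or width. The assay was ChIP-seq, in which DNA crosslinked to a protein is pulled down with an antibody and sequenced. The material was whole embryos of the wild-type strain Oregon-R aged 14 to 16 h, so cell types were mixed. There were 2 ZW5 ChIP libraries and 2 input libraries of the same strain, age and genotype, and each input library was paired by the labels with the ChIP library of its number. Lists of enriched regions were at hand for each ChIP library and for both together, with coordinates on FlyBase release 5. On 3L the list of replicate 1 held 100 regions and that of replicate 2 held 192.

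ZW5, short for zeste-white 5, binds DNA through zinc fingers and is best known from scs, a boundary element beside a heat shock locus on arm 3R. Boundary elements, also called insulators, keep an enhancer from acting on a promoter on their other side and mark limits between chromatin domains. At scs, ZW5 is known to meet BEAF-32, the protein bound at the partner element scs', which brings both elements together in a loop. In release 5 the coordinates of 3L start at the telomere and end near the centromere, where the arm passes into heterochromatin, a compact and repeat-rich form of chromatin. No genome or gene annotation of release 5 was used here, so regions are given by position only, with no sequence and no gene name.

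Strong ZW5 regions on 3L were few and spread from 0.835% to 95.5% of the arm's length. The one at 95.5% was in neither replicate list. The last one found in both replicates ended at 22060206, 89.9% of the way along. A region is called strong where the score the authors gave it was at least 1 and weak otherwise. The scale of this score is not stated, and the boundary was set with the scores known. Of the 940 regions, 38 were strong (4.04%, 95% Wilson interval 2.96 to 5.50) and 902 were weak. The background over the whole combined list was 6.54%, but 135 of its 336 strong regions lay outside the 5 large arms, on chromosome 4, heterochromatic or unplaced sequence. On the other 4 large arms together 4.18% of regions were strong, a difference (3L minus the others) of -0.140 percentage points with an interval from -1.42 to 1.43. The 3L share is therefore close to that of the other large arms, while its interval lies below the 6.54% of the whole list. Replicates are too few, and regions too dependent on each other, for a test of arms, so intervals are given throughout, and these take in counting error alone. Whether the replicates came from separate embryo collections is not in the labels.

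Both replicates held most of the strong regions. Of the 38, 31 were overlapped by at least 1 bp by a region of each replicate list (81.6%, Wilson interval 66.6 to 90.8). The combined list pools the same 2 libraries, so such overlap is not independent of a high combined score. Over all 940 members this support from both replicates was reached by 47 (5.00%, interval 3.78 to 6.59), beside 5.36% over the whole combined list. The remaining 16 of the 47 were weak. Replicate 1 alone overlapped 41 members (4.36%, background 5.49%) and replicate 2 alone overlapped 123 (13.1%, background 12.2%). Neither replicate list held the other 729 (77.6%, background 77.0%). Support from at least 1 replicate was thus 22.4% on 3L (211 regions, background 23.0%), and each of these shares of the 940 stood near its whole-list background. On the other 4 large arms 5.85% were found in both, 5.77% in replicate 1 only, 12.8% in replicate 2 only and 24.4% in either. The differences, 3L minus these arms, were -0.851 percentage points for both (interval -2.30 to 0.880) and -1.93 for either (-4.83 to 1.14).

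**Figure D1:**
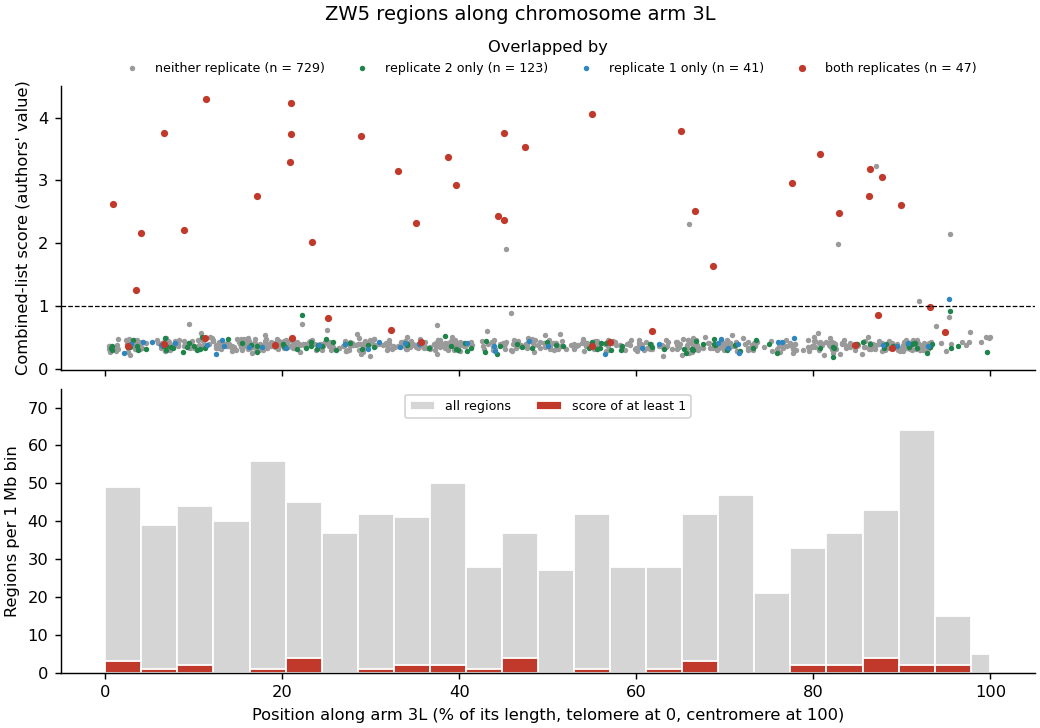
Upper panel: score of each of the 940 regions of 3L against position along the arm in percent of its length (telomere at 0), coloured by the replicate lists that overlap it, with a dashed line at the score of 1. Lower panel: number of all regions (grey) and of strong regions (red) in each 1 Mb bin, the last bin being shorter than 1 Mb. Most strong regions (32 of 38 at a score of at least 2) lie above a band of weak ones. Scores run on across the dashed line, with 0.983 just below and 1.09 just above it. The last bins hold the fewest regions.

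The highest score on 3L, 4.30, belonged to 2779330 to 2783956, 11.3% of the way from the telomere. This region was 4627 bp wide and scored 4.12 in replicate 1 and 4.64 in replicate 2, rank 9 in each list. Second was 5143792 to 5147070 with 4.23, and replicate scores of 4.24 (rank 4) and 4.56 (rank 12). The third, 13494568 to 13497626, lay near the middle of the arm with 4.06, and scored 3.92 in replicate 1 and 3.85 in replicate 2. These were the only 3 regions of 3L with a score of at least 4, and they held ranks 8, 10 and 14 of the whole combined list.

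From the telomere inwards, the first of the 20 highest-scoring regions found in both replicates was 202502 to 207396. It scored 2.63 in the combined list, 2.50 in replicate 1 and 2.81 in replicate 2, and only 2 regions of the arm were wider than its 4895 bp. Next came 1616756 to 1619786 with 3.75, 3.41 and 4.19 in the same order of lists. The region 4192748 to 4195244 scored 2.75, 2.27 and 3.16. All 3 lay more than 500 kb from any other strong region, at gaps of 642.8, 550.3 and 931.7 kb. Farther in, 7085220 to 7089000 scored 3.71, 3.94 and 3.97, and 8107670 to 8110860 scored 3.15, 2.82 and 3.62. The former was the more isolated of the pair, with no strong region within 1018.7 kb.

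Closer to the middle of the arm, 9500954 to 9503884 scored 3.38 in the combined list, 3.24 in replicate 1 and 3.71 in replicate 2. Its strong neighbour 9715116 to 9717768, at a gap of 211.2 kb, scored 2.92, 2.62 and 3.24. Beyond it lay 11640198 to 11642900 with 3.54, 3.21 and 3.89. Still more isolated was 13494568 to 13497626, described above, whose nearest strong neighbour lay 1851.7 kb away, the largest such distance on 3L. Past the middle, 15974482 to 15977548 scored 3.79, 3.70 and 4.02.

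Towards the centromere, 19053144 to 19057436 scored 2.96 in the combined list, 3.02 in replicate 1 and 3.60 in replicate 2. The next, 19825970 to 19828808, scored 3.41, 3.26 and 3.08. Nearest the centromere was 21531270 to 21534082, with 3.05, 2.78 and 3.36. The other 5 of the 20 belong to the groups described next. Over all 20, scores ran from 2.63 to 4.30 and widths from 2497 to 9647 bp, and the lowest rank was 126 in replicate 1 and 119 in replicate 2. The other 11 strong regions found in both replicates scored 1.25 to 2.60 and were 2321 to 3341 bp wide.

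Strong regions came close to each other in 4 places on 3L, when those with at most 20 kb between their edges were joined. The groups took in 9 of the 38 strong regions (23.7%). The largest lay 20.9% of the way along the arm and packed 3 strong regions into 20.2 kb, from 5126904 to 5147070. Its first member, 5126904 to 5136550, was the widest region of 3L at 9647 bp and scored 3.30. In each replicate list this region was split in 2. Replicate 1 had 5126911 to 5130707 with 2.92 and 5131225 to 5136074 with 3.33. Replicate 2 had 5128023 to 5130685 with 3.78 and 5131342 to 5136247 with 3.74. Read from the replicates, the group therefore had 4 strong regions, and this was the only 3L region that held more than 1 region of a replicate. The second member, 5137180 to 5140608, followed after a gap of 629 bp and scored 3.74 in the combined list, 3.54 in replicate 1 and 4.14 in replicate 2. The third, 5143792 to 5147070, came 3183 bp later and was the second strongest of the arm. No weak region lay inside this group, and the nearest one, a region of 1045 bp in neither replicate list, began 19551 bp after its end.

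The other groups held 2 strong regions each. At 45.0% of the arm, 11053170 to 11059734 scored 3.76, with 3.50 in replicate 1 and 4.13 in replicate 2, and was the second widest region of 3L at 6565 bp. Its partner 11066240 to 11069236, 6505 bp away, scored 2.37, 2.22 and 2.58, and a weak region overlapped by neither replicate lay between them. Nearer the centromere, 21188706 to 21191352 scored 2.75, 2.56 and 2.99. It stood 17279 bp from 21208632 to 21211292, which scored 3.18, 2.93 and 3.46. These groups were held by both replicates in full. In the last group, 20328862 to 20330142 scored 1.98 and appeared in neither replicate list, while 20339750 to 20342600, 9607 bp farther on, scored 2.48 with 2.30 in replicate 1 and 2.75 in replicate 2. Only its second member thus had replicate support. The count of groups was 8 on 2L, 3 on 2R, 6 on 3R and 2 on X, and the share of strong regions in a group was 46.0%, 20.5%, 22.6% and 19.0%.

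**Figure D2:**
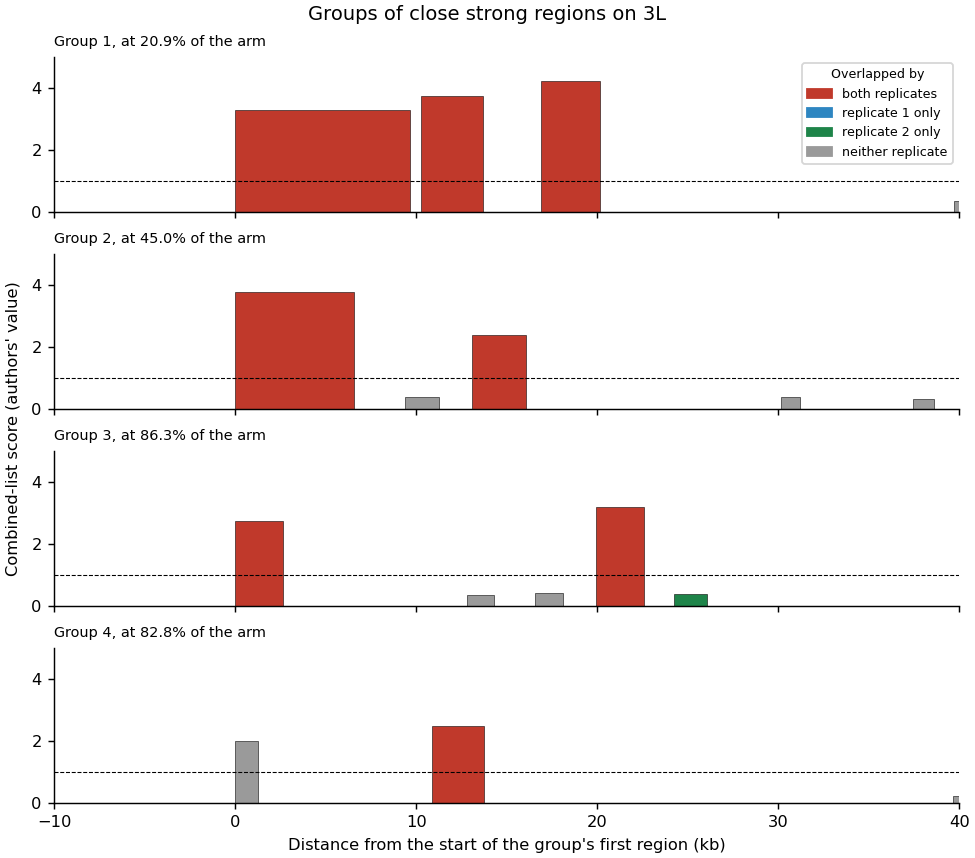
The 4 groups of close strong regions of 3L, each with its neighbourhood. Bars span each region's extent in kb from the start of the group's first region, their height is the score, their colour gives the replicate lists that overlap the region, and the dashed line marks a score of 1. Group 1 shows 3 bars between 3.30 and 4.23, and in group 4 the first bar, at 1.98, is overlapped by neither replicate.

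Most strong regions stood alone, and 16 of the 38 had more than 500 kb to the nearest other one. The median gap to the nearest other strong region was 188.1 kb. Stretches of at least 1 Mb without a strong region numbered 7 and took up 46.8% of the length between the arm's first and last region. The longest ran for 2.48 Mb from 13497627 to 15974481, across 80 weak regions with scores up to 0.596, of which 3 had support from both replicates. The next, of 2.20 Mb from 16857467 to 19053143, held 79 weak regions with scores up to 0.536, and none was found in both replicates. Then came 1.85 Mb from 11642901 to 13494567 with 58 weak regions, 1.41 Mb from 2783957 to 4192747 with 58 and 1.34 Mb from 5747215 to 7085219 with 49. These stretches lacked strong regions but not weak ones. On the other large arms 8 or 9 such stretches were found per arm, which covered 56.7% of 2L, 60.4% of 2R, 47.8% of 3R and 85.3% of X.

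Stretches without a region of any score were short by comparison. In 31 places at least 100 kb held no combined-list region, 4.39 Mb or 17.9% of the span in all. The longest, 312.9 kb from 23971467 to 24284387, lay near the centromeric end and held no region of either replicate. The second, 259.3 kb from 10178775 to 10438083, held 1 region of replicate 1 and none of replicate 2. After them came 200.7 kb from 19150347 to 19350999, 194.8 kb from 18070143 to 18264991 and 192.7 kb from 23466201 to 23658915, all empty in both replicates. All 31 together held 3 regions of replicate 1 and 2 of replicate 2. Since the combined list overlapped 89 of the 100 and 169 of the 192 replicate regions on 3L, few could lie in these stretches, and the counts are no separate support for their emptiness. The other arms had 24 such stretches on 2L, 20 on 2R, 19 on 3R and 23 on X, over 14.5%, 13.3%, 8.50% and 13.9% of their spans. Several of the 31 on 3L, among them those of 312.9 and 192.7 kb, lay past 23 Mb. There the arm held only 20 regions in 1.54 Mb, so the higher count is not spread evenly over 3L. Whether reads can be placed uniquely in these stretches was not tested.

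Regions of all scores were densest in the telomeric part of the arm, while its 3 equal parts held nearly the same number of strong ones. With the span of the arm divided into 3 equal parts, the telomeric part held 360 regions (44.2 per Mb, 95% exact Poisson interval 39.7 to 49.0), the middle part 297 (36.4, interval 32.4 to 40.8) and the centromeric part 283 (34.7, interval 30.8 to 39.0). The interval of the telomeric part did not overlap that of the centromeric part. The centromeric part takes in the last 1.54 Mb of the arm, with only 20 regions (13.0 per Mb). It also takes in the fullest bin of the arm, with 64 regions. How far the sparse end accounts for the lower density of this part was not tested. A higher density in the telomeric than in the centromeric part was also seen on 2L (44.0 against 31.4 per Mb, intervals apart), and, with overlapping intervals, on X (45.5 against 37.7) and 2R (48.1 against 43.6), but not on 3R (43.8 against 45.4). Strong regions were 13, 12 and 13 in the same order, 34.2%, 31.6% and 34.2% of the 38. This even split counts strong regions without support from both replicates. Of those 7, 5 lay past 20 Mb, in the centromeric part. The rest, 11099040 to 11100040 and 16180944 to 16182000, lay in the middle part. Strong regions found in both replicates were thus most numerous in the telomeric part, where all 13 strong ones had this support. These counts are small and no interval was computed for them, so no trend along the arm is read from them. Regions found in both replicates were 20, 14 and 13, with overlapping intervals of 1.499 to 3.79, 0.939 to 2.88 and 0.849 to 2.73 per Mb. On 3R the centromeric part held 27 of 53 strong regions and on X 13 of 21, against 13 of 50 on 2L and 17 of 39 on 2R.

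By 1 Mb bins, the 24 full bins of 3L held 15 to 64 regions, with a median of 40.5. Strong regions were present in 18 of all 25 bins and reached 4 in the bins from 5 to 6, 11 to 12 and 21 to 22 Mb. The fullest bin, from 22 to 23 Mb, held 64 regions, of which 2 were strong and 50 were in neither replicate list. Next to it, from 23 Mb to the end of the arm, only 20 regions were found in 1.54 Mb, or 13.0 per Mb (exact Poisson interval 7.91 to 20.0), against 40.0 per Mb (37.5 to 42.7) in the 23 Mb before. The median score of these 20 was 0.465 against 0.381 before. This boundary was chosen after the counts were seen. The heterochromatic scaffold of the same arm, 3LHet, is a separate sequence with 35 regions, 9 of them strong, and is not part of the 940.

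The 2 strong regions nearest the centromere were among the 7 strong regions of 3L not found in both replicates. Between 23405652 and 23435528, 4 regions scored from 0.819 to 2.14, and none was found in both replicates. The strongest, 23433950 to 23435528 with 2.14, was in neither list. Beside it, 23407304 to 23409124 scored 1.12 and was found in replicate 1 only, with 1.496, and 23431688 to 23432800 scored 0.926 and was found in replicate 2 only, with 1.34. The remaining one, 23405652 to 23407050, scored 0.819 and was in neither. Nearest to them with support from both was the weak region 23292868 to 23295112, with 0.578 in the combined list, 0.742 in replicate 1 and 0.689 in replicate 2.

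Width separated the strong regions with replicate support from those without. All 31 found in both replicates were 2321 to 9647 bp wide, with a median of 2851 bp. The 7 others were 1001 to 1821 bp wide, so the ranges did not overlap. Of these 7, 6 were in neither list, and 5 of the 6 were narrower than 1301 bp, the narrowest region in either replicate list. The strongest of them, 21369318 to 21370318, scored 3.23 and ranked 13 on 3L at the minimum width of 1001 bp. The next in score was 16180944 to 16182000 with 2.30 and 1057 bp. Then came 23433950 to 23435528 with 2.14 and 1579 bp and 20328862 to 20330142 with 1.98 and 1281 bp. The lowest were 11099040 to 11100040 with 1.90 and 1001 bp and 22570610 to 22571616 with 1.09 and 1007 bp. Since no replicate list held a region under 1301 bp, the limit on width moves with the lack of support, and its part in it was not tested. On the other 4 large arms 37 strong regions were not found in both replicates, and 36 strong regions there were narrower than 1301 bp.

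**Figure D3:**
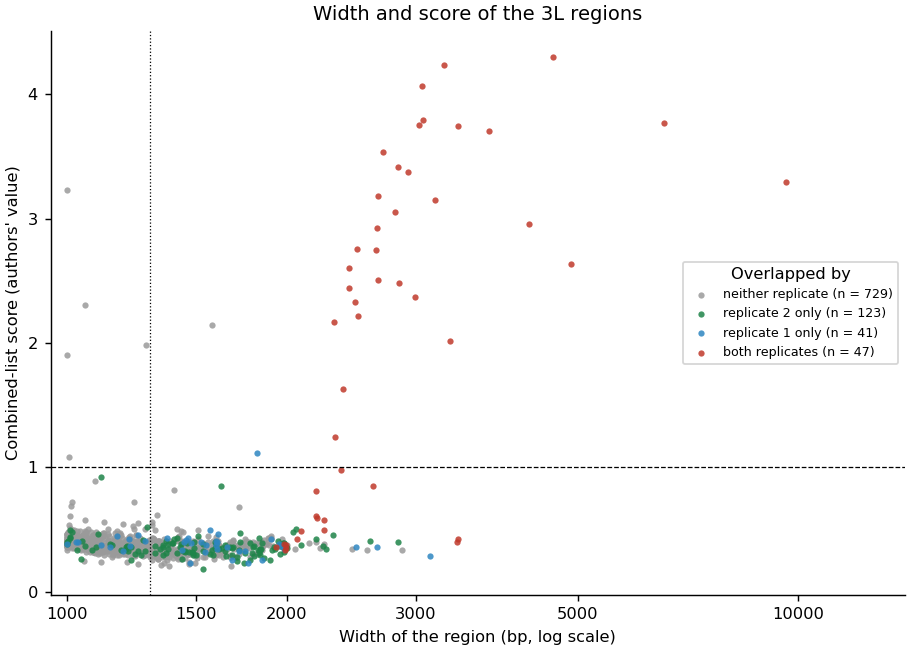
Score against width (bp, log scale) for the 940 regions of 3L, coloured by the replicate lists that overlap them. The dotted line marks 1301 bp, the narrowest region in a replicate list, and the dashed line a score of 1. Strong regions found in both replicates lie at 2321 bp or wider, and strong regions in neither list lie between 1001 and 1579 bp.

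Weak regions made up the rest of the arm and differed little in score. Of all 940 members, 92.4% scored under 0.5, and 33 weak regions reached 0.5 or more. The quartiles of all scores were 0.339 and 0.418 around a median of 0.381, and the medians of the single bins up to 23 Mb stayed between 0.363 and 0.398. Scores near the boundary were few. Above 1, the lowest were 1.09, 1.12, 1.25, 1.63 and 1.90, and below it the highest were 0.983, 0.926, 0.895, 0.850 and 0.849. The region at 0.983, 22870696 to 22873070, was found in both replicates with 0.789 and 1.21, so it passed 1 on the scale of replicate 2 only.

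Among weak regions, replicate support went with width. At least 1 replicate overlapped 16 of 298 weak regions of 1001 to 1100 bp (5.37%, Wilson interval 3.33 to 8.54) and 25 of 221 of 1101 to 1300 bp (11.3%, interval 7.78 to 16.2). The share was 23.5% (51 of 217) from 1301 to 1600 bp, 47.8% (64 of 134) from 1601 to 2000 bp and 71.9% (23 of 32) above that. The part of the overlap rule in this order was not tested by width. Over all members, asking for an overlap of at least 50% of the narrower region left the share at 22.3% against 22.4%. Asking for centres within 250 bp lowered it to 18.9%. Neither share is split by width, so neither speaks to the order. The median score did not follow the same order, at 0.402, 0.364, 0.342, 0.360 and 0.400 from narrow to wide. Over strong and weak regions together, the median width on 3L was 1249 bp, with quartiles of 1060.5 and 1535 bp.

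The 16 weak regions found in both replicates were 1931 to 3431 bp wide and scored 0.333 to 0.983. Among them, 3 lay within 20 kb of a strong region. One was 2773256 to 2775506, 3823 bp before the strongest region of the arm, with 0.497 in the combined list, 0.461 in replicate 1 and 0.672 in replicate 2. Another was 1626720 to 1630132, 6933 bp after 1616756 to 1619786, with 0.399, 0.572 and 0.544. The third was 13505384 to 13507374, 7757 bp after 13494568 to 13497626, with 0.356, 0.332 and 0.489. The share within 20 kb was thus 18.8%, beside 7.10% of all 902 weak regions (64) and 47 of the 723 weak regions in neither list. The median gap to a strong region was 193.3 kb over the 16 and 196.2 kb over the 723. On 2L 9 of 28 weak regions found in both replicates lay within 20 kb (32.1%), beside 8.69% of all its weak regions. The shares were 8.33% (2 of 24) beside 6.72% on 2R, 35.5% (11 of 31) beside 10.2% on 3R and 5.26% (1 of 19) beside 3.24% on X. These shares rest on few regions and were not tested.

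Many of the strong regions found in both replicates had a weak region beside them. At least 1 lay within 5 kb for 17 of 31 (54.8%, Wilson interval 37.8 to 70.8), as against 333 of the 902 weak regions (36.9%, interval 33.8 to 40.1). On the other 4 large arms the shares were 57.9% (interval 49.2 to 66.2) and 39.2% (interval 37.7 to 40.8). The 3L intervals overlap each other, and those of the other arms pooled do not. Taken singly, the intervals were apart on 2L (57.1% against 29.4%) and 3R (70.2% against 42.9%). They overlapped on 2R (51.9% against 42.1%), and on X the order was reversed (20.0%, 2 of 10, against 39.9%). Among strong regions not found in both replicates, the share was 28.6% on 3L (2 of 7) and 18.9% on the other arms. On 3L the weak neighbours of the strong regions found in both replicates numbered 19. At least 1 replicate overlapped 6 of them and both overlapped 1, so most were in neither list. The share with support was 31.6% (Wilson interval 15.4 to 54.0), beside 19.6% (17.1 to 22.3) of the other 883 weak regions, with overlapping intervals. The distance of 5 kb was chosen after positions were seen. The closest neighbour began 49 bp after the strong region 19825970 to 19828808, and in replicate 2 both belonged to a single region, 19825929 to 19830790. The same held for 13494568 to 13497626, whose weak neighbour ended 273 bp before it and which replicate 2 covered by a region from 13492890 to 13497530. These were the only 2 replicate 2 regions on 3L that spanned 2 combined-list regions.

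Strong regions kept their order between the replicates. Over the 31 strong regions found in both, Spearman's rho between the scores of replicate 1 and replicate 2 was 0.948 and Pearson's r was 0.957. In the 16 weak ones rho was 0.606 and r was 0.669. These values describe the order of regions and not replicate error, because each region appears once per library, all share the same 2 libraries, and the regions entered by being found in both. The 2 classes were cut on the combined score. Replicate 1 scores ran from 0.302 to 0.856 in the weak class and from 0.960 to 4.24 in the strong class. With ranges so unlike, rho and r cannot be compared between the classes. Among the strong regions the deposited score was higher in replicate 2 in 29 of 31. Both exceptions were the regions that replicate 2 merged with a weak neighbour, with 3.92 against 3.85 and 3.26 against 3.08. The scale is not stated and the lists were made separately, so whether levels compare between lists is unknown. The boundary of 1 was applied to each list's own scores, and counts of strong regions are therefore set by each list's scale. For the widest region, split in each replicate, the highest score of each list was used.

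**Figure D4:**
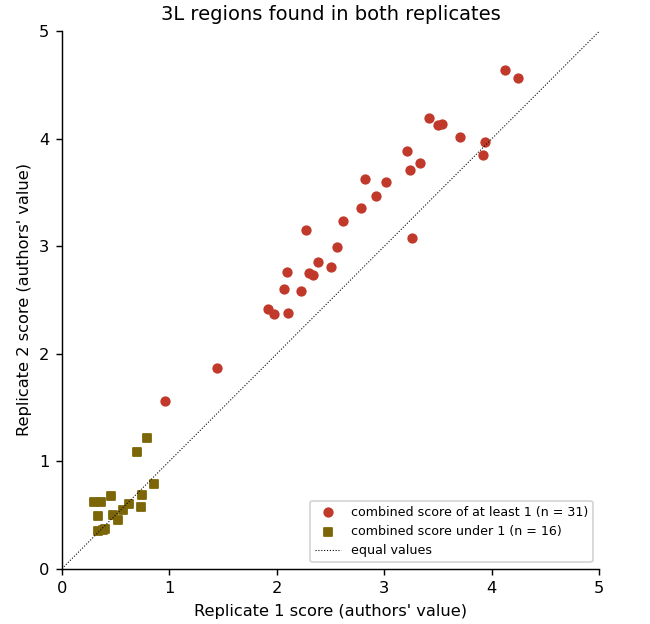
Scores given by the authors in replicate 1 (x axis) and replicate 2 (y axis) for the 47 regions of 3L found in both, with strong regions as circles, weak ones as squares and a dotted line of equal values. Strong points run along a band, and the 2 circles under the line are the regions that replicate 2 merged with a weak neighbour.

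The replicates' own lists on 3L shared their strong regions and few of the others. Replicate 1 had 32 strong regions there, of which 31 overlapped replicate 2 (96.9%, Wilson interval 84.3 to 99.4), and replicate 2 had 36, of which 34 overlapped replicate 1 (94.4%, interval 81.9 to 98.5). The exception in replicate 1 was 23407742 to 23409385 with 1.496. In replicate 2 the exceptions were 5453490 to 5454814 with 1.28 and 23431609 to 23433045 with 1.34. These were 1325 to 1644 bp wide, whereas the median among shared regions was 2398 bp in the first list and 2585.5 bp in the second. Far fewer weak regions were shared, namely 17 of the 68 in replicate 1 (Wilson interval 16.2% to 36.4%). In replicate 2 they were 14 of 156 (8.97%, interval 5.42 to 14.5). On the other 4 large arms 27.0% (interval 22.8 to 31.6) and 12.4% (interval 10.2 to 15.0) of weak regions were shared. The combined list, which pools the same libraries, overlapped all 32 and all 36 strong regions on 3L. It missed 11 regions of replicate 1, with scores up to 0.714, and 23 of replicate 2, with scores up to 0.592.

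Per length, 3L held 38.5 regions per Mb (exact Poisson interval 36.0 to 41.0), 1.55 strong regions per Mb (1.100 to 2.13) and 1.92 per Mb found in both replicates (1.41 to 2.56). Arm length was the distance from the first region at 93500 to the last at 24539098, 24.4 Mb in all. The density of all regions was 0.925 times that of the other 4 large arms together (exact interval 0.861 to 0.994). For strong regions the ratio was 0.894 (0.611 to 1.28) and for regions found in both replicates 0.791 (0.565 to 1.09). Only the ratio of all regions had an interval below 1. That lower density did not hold evenly along 3L. It was 13.0 per Mb past 23 Mb and 40.0 (interval 37.5 to 42.7) before, beside 41.6 on the other 4 large arms. The cut at 23 Mb was chosen after the counts were seen, and the other arms were not cut. The part of the sparse end in the ratio was not tested. Split by strength, the ratio was 0.944 (0.615 to 1.41) for strong and 0.602 (0.331 to 1.02) for weak regions found in both replicates. In the order of all regions per Mb, 3L stood after 3R, 2R and X and before 2L. Its interval overlapped those of X (37.1 to 42.3), 2L (33.8 to 38.8) and 2R, whose lower bound was 40.9, but not that of 3R (43.3 to 48.4).

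**Figure D5:**
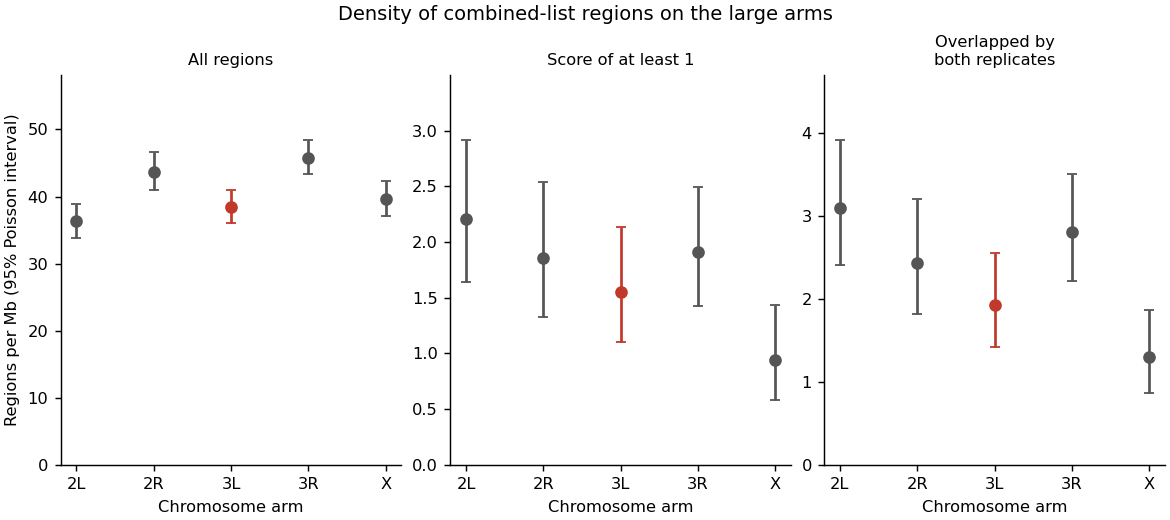
Combined-list regions per Mb on the 5 large arms (3L in red) for all regions, strong regions and regions found in both replicates, with 95% exact Poisson intervals as bars. Among strong regions 3L, at 1.55 per Mb, lies between X and 2R, and its interval overlaps those of all other arms.

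The median score of the strong regions of 3L was 2.75 (interval of the median 2.37 to 3.23), against 2.81 on 2L, 2.85 on 2R, 2.76 on 3R and 1.98 on X. The median width of strong regions was 2682 bp on 3L, 3280 bp on 2L, 3127 bp on 2R, 2989 bp on 3R and 1287 bp on X. Found in both replicates were 81.6% of strong regions on 3L and 77.3% on the other 4 large arms, a difference of 4.28 percentage points with an interval from -11.8 to 15.8. The median score of all regions was 0.381 on 3L and 0.388 on the other 4 arms, and the regions of 3L covered 1.31 Mb, or 5.36% of its span.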

How the data were processed

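ZW5 ChIP-seq of Oregon-R embryos was analysed from 3 deposited region lists, 1 for each of the 2 ChIP libraries and 1 for both together. Each region carries a score the authors deposited, whose scale is not stated. Per the file headers, positions refer to FlyBase release 5. The submitters' processing notes name Bowtie 0.12.7, an aligner. How regions were called and filtered, and how the combined list was built from the replicates, is not given in the sources used here. No input list was used here, and library depth is unknown.

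All regions named 3L were taken, with no filter. Overlap meant at least 1 bp, and where a region met several regions of a replicate, the highest score was used. Gaps were measured between edges. The 95% intervals are Wilson's for shares, Newcombe's for differences of shares, exact Poisson for densities and exact conditional for ratios of densities. No test was run, and the combined list, which pools libraries, has no replicate error. Named regions were the 20 highest scores found in both replicates, strong regions not found in both, the 5 widest, the groups of close strong regions, the 5 longest stretches of each kind and the 5 scores on either side of 1. Weak regions found in both replicates and the cluster past 23 Mb were added after their values were seen. The members, the boundary and these lists were chosen with earlier results of these data known. A gene table of release 6 was left unused, because positions were not converted between releases. The overlap and grouping functions were tested on simulated lists. Computation was in Python 3.11.15 with pandas 2.3.3 and numpy 2.4.6, intervals used scipy 1.17.1, and matplotlib 3.10.9 drew the figures.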

Additional observations from a re-analysis of the deposited data

How the results depend on the processing

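Score boundaries of 0.8 and 1.5 kept the share, the density, the telomeric share and the number of groups of strong regions within counting error or 1.5 times. Groups numbered 3 with gaps of at most 10 kb, 5 with 50 kb and 6 with a boundary of 0.8. Of 36 alternatives over 11 results, 18 stayed within these limits and 18 moved, and 3 were added after the data were seen. Limits on the list moved values by construction, since they remove regions. Among regions scoring above the median of the combined list, 3L had 16.8 regions per Mb, 9.25% strong, 10.2% found in both replicates, a median width of 1121 bp, a median score of 0.428 and 72 empty stretches of at least 100 kb. Among regions of at least 1301 bp it had 17.0 per Mb, 7.93% strong, 11.3% found in both, 40.9% found in either, a median width of 1587 bp and a median score of 0.360, and 93.9% of strong regions were found in both, 1 of the 3 added. Requiring centres within 250 bp gave 18.9% for either replicate, and the cause was not tested. With a single replicate list, support was 9.36% (replicate 1) to 18.1% (replicate 2), as both and either then mean the same. No paired analysis was possible because no list of an input library was used here. With depth unknown, a weak region missing from a replicate list cannot be told from one below its detection limit.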

Other observations

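All start and end positions of the combined list were even numbers while 52.6% of start positions in replicate 1 and 50.6% in replicate 2 were even. On 3L, 46 regions had the minimum width of 1001 bp. Scores equal to 9 decimals were shared by 200 of the 940 regions, and 824 distinct scores were used.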
